A study of Mus musculus with 16 samples.

Results

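The genes described here are the chemokines and their receptors: every array feature whose annotated symbol starts as a CC, CXC, CX3C or XC chemokine (Ccl, Cxcl, Cx3cl, Xcl), as one of their receptors (Ccr, Cxcr, Cx3cr, Xcr) or as an atypical chemokine receptor (Ackr). The rule leaves out Ccrn4l, which only shares letters, and takes the feature with the highest mean where a gene has several. It found 60 genes of the 19505 named on the array: 38 ligands, 18 receptors and 4 atypical receptors.

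Chemokines are small secreted proteins that steer the movement of leukocytes, and of some neurons and epithelial cells, through receptors that couple to inhibitory G proteins. Inflammatory ligands are made on demand by stimulated macrophages, neutrophils and epithelia and draw neutrophils and monocytes into tissue, while homeostatic ligands such as Cxcl12 are made steadily by stromal or epithelial cells. Atypical receptors bind chemokines without G protein signalling and remove or present them. In the olfactory mucosa such signals reach resident and recruited leukocytes among the sensory neurons, the supporting cells and the stem cells that replace neurons.

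The series measured RNA with Clariom S mouse arrays in fluorescence-sorted cells of olfactory mucosa. The mice were S100a5-tauGFP animals, in which GFP follows S100a5, a gene that odor activity induces in olfactory sensory neurons. All groups share this reporter and the strain C57BL/6, and the 24 mice were of both sexes and 7 to 12 weeks old. Each mouse sat alone in a chamber for 40 h at 3.1 L of clean air per min, and from 26 h on it received 10 s pulses every 20 min of isoamyl acetate, a banana-like ester (odor), or of filtered air (vehicle). Cells of 3 mice were pooled, and each of 8 pools gave 1 library titled GFP+ and 1 titled GFP-, so that the groups odor titled GFP+, odor titled GFP-, vehicle titled GFP+ and vehicle titled GFP- hold 4 libraries each. S100a5 marks a neuron by its activity and not by its type, and bulk libraries of sorted cells hold whatever other cells passed the gate.

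The titles and the cell type field of the labels give opposite GFP signs in all 16 libraries. S100a5 itself was lower in the library titled GFP+ in 8 of 8 pools, by a log2 difference between -1.45 and -0.86. Directions below follow the titles, and by the cell type field the sort and interaction differences take the opposite sign, while odor minus vehicle differences keep theirs under the other group name. Omp, which marks mature olfactory neurons, lay between 17.99 and 18.59 log2 units in every library. Array medians were 6.79 to 6.90 in libraries titled GFP+ and 6.42 to 6.52 in libraries titled GFP-, and the median sort difference over all 22206 tested features was -0.14 with odor and -0.13 with vehicle. The precision of every value is limited by the 4 arrays per group. P-values measure the spread between libraries within a group, each from a pool of 3 mice. The main fit does not match the titled GFP+ and titled GFP- libraries of a pool.

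Levels are log2 signals as deposited, and 1 unit stands for a factor of 2. A gene was taken as above background in a library when its signal exceeded the median negative control of that array, which lay between 5.15 and 5.56 in libraries titled GFP+ and between 5.30 and 5.67 in libraries titled GFP-. Of the 60 genes, 27 were above background in all 4 libraries of at least 1 group, 33 in no group, and 25 in none of the 16 libraries. In both groups titled GFP+ 21 genes were above background throughout, against 10 in both groups titled GFP-. Those 10 genes were bright in all 4 groups: the ligands Ccl6, Ccl17, Ccl20, Ccl21a, Ccl25, Ccl27a, Cxcl16 and Cx3cl1, the receptor Ccr7 and the atypical receptor Ackr1. Where a gene was not above background in any library of a group, its level there is only a bound. The brighter group is then given as at least N-fold higher, against the mean over the 4 arrays of the negative control median, and no fold is given where that bound falls below 1.

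With odor, 23 of the 60 chemokine and receptor genes were higher in libraries titled GFP+ and 3 were lower (limma, adjusted p below 0.05 over all features), while 11.0% of all features were higher, 9.86% lower and 20.9% called. With vehicle, 15 were higher and 4 lower, where 10.2% of all features were higher, 7.16% lower and 17.3% called. The 15 genes higher with vehicle were also higher with odor: the ligands Ccl3, Ccl5, Ccl6, Ccl9, Ccl22, Cxcl2, Cxcl12 and Cxcl16, the receptors Ccr1, Ccr2, Ccr9, Cxcr2, Cxcr4 and Cx3cr1, and the atypical receptor Ackr4. Of all features, 9.22% were higher in both. The median sort difference of the 60 genes was 0.22 with odor, against -0.14 over all features, and -0.03 with vehicle, against -0.13 over all features. In bulk RNA, fewer cells of a type and less RNA per cell cannot be told apart.

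These counts move with the scale of the arrays. When every array was centred on its median, 18 members were higher and 17 lower with odor, and 14 higher and 30 lower with vehicle. Of all 22206 features, 1875 were then higher and 13679 lower with odor, and 1762 higher and 13868 lower with vehicle. When arrays were centred on mature neuron markers instead, 30 were higher and 0 lower with odor, and 18 higher and 0 lower with vehicle. Of all features, 3938 were then higher and 568 lower with odor, and 3113 higher and 542 lower with vehicle. The calls over all features shifted alike: the higher ones made up 52.8% of odor calls as deposited, 12.1% on the median scale and 87.4% on the neuron marker scale, and the same shares for vehicle were 58.7%, 11.3% and 85.2%. The 15 genes higher in both kept a positive difference under every alternative run. They also passed under each one that tested them, except Cx3cr1, not called with odor when only the odor groups were fitted or without odor titled GFP+ replicate 1 (0.90, adjusted p = 0.0549), and Cxcl12, not called with vehicle on the median scale (0.36, adjusted p = 0.0815).

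**Figure D1:**
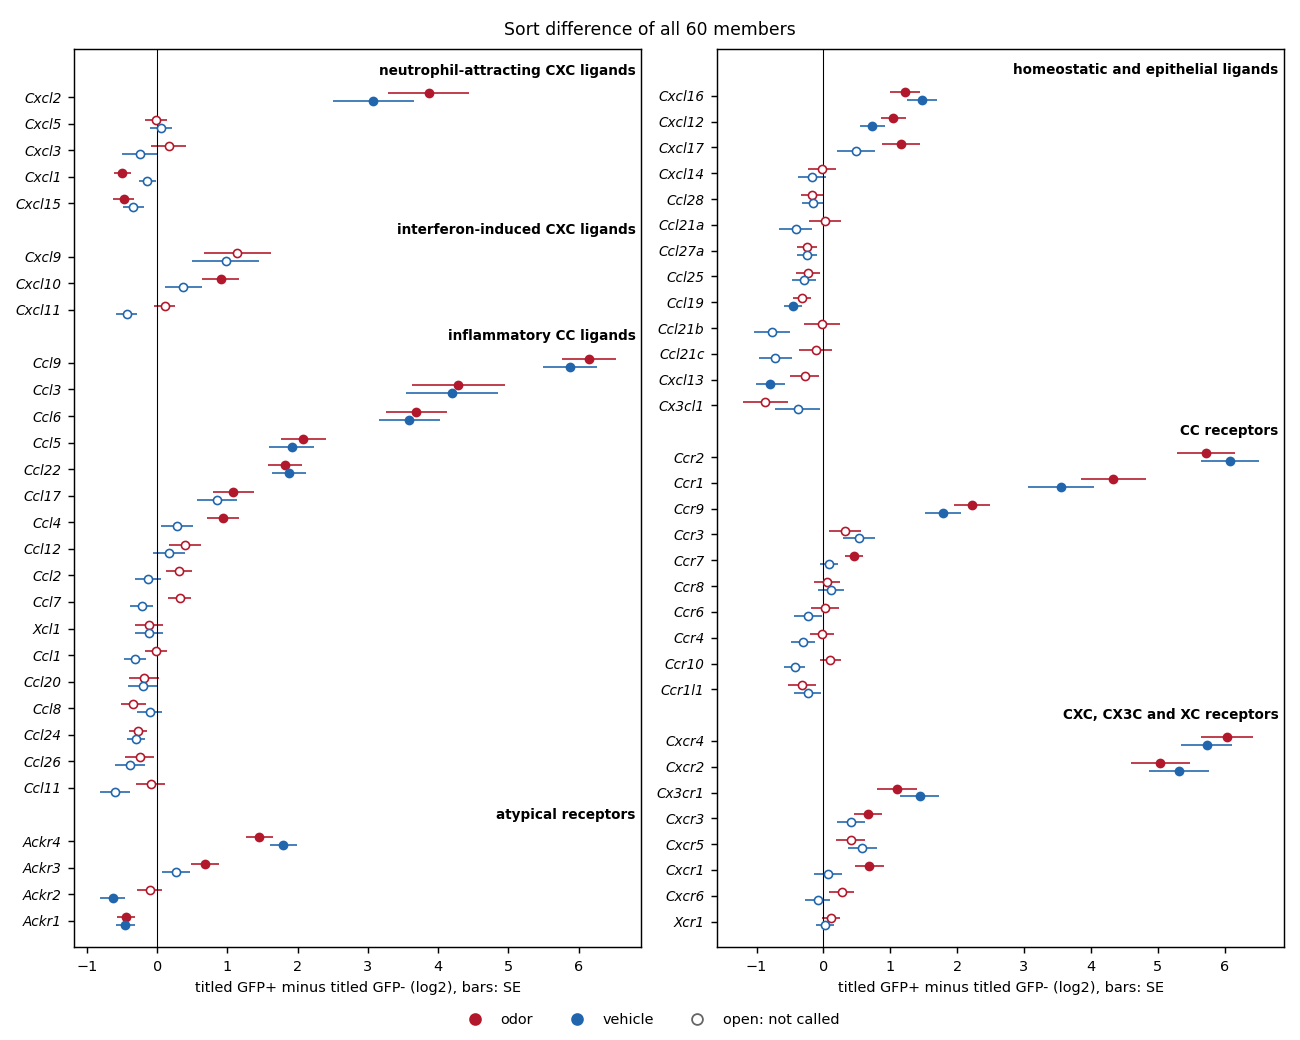
Sort difference of the 60 chemokine and receptor genes, in log2 units of titled GFP+ minus titled GFP- (horizontal axis), by role group (panels and headings), with odor in red and vehicle in blue. Points are the fitted differences, bars their SE, and open points did not pass an adjusted p of 0.05. Most genes sit near 0, while Ccl9, Ccr2, Cxcr4 and Cxcr2 lie beyond 5.

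Inflammatory CC ligands held the ligand with the largest sort difference, Ccl9. The group is named for its CC ligands and also holds the XC ligand Xcl1. Of 17 genes in this group, 5 were higher in both agents (Ccl3, Ccl5, Ccl6, Ccl9 and Ccl22), Ccl4 and Ccl17 were called with odor and not with vehicle, 10 in neither, and none was lower. Ccl9, a ligand of Ccr1, had log2 signals of 11.20, 11.49, 9.73 and 11.28 in odor titled GFP+, against 4.73, 5.21, 4.13 and 5.06 in odor titled GFP-. With vehicle it had 10.74, 11.67, 10.12 and 11.36 in titled GFP+, against 5.14, 4.88, 4.68 and 5.67 in titled GFP-. The groups did not overlap with either agent, and replicate 3 was the lowest titled GFP+ library of both. The difference was 6.14 (SE 0.38, adjusted p = 2.63e-09) with odor, at least 44.5-fold since all 4 odor titled GFP- libraries were at background, and 5.88 (SE 0.38, adjusted p = 4.98e-09) with vehicle.

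Ccl3, also called MIP-1 alpha, is a ligand of Ccr1 released by stimulated macrophages and neutrophils. It had 12.73, 11.89, 11.93 and 12.06 in odor titled GFP+, against 7.56, 6.17, 8.75 and 8.97 in odor titled GFP-. Its vehicle libraries gave 11.01, 10.90, 10.56 and 12.06 in titled GFP+, against 6.52, 5.38, 6.73 and 9.09 in titled GFP-. The titled GFP- libraries were above background save vehicle replicate 2, and in both agents they spread over more than 2 log2 units, with replicate 2 the lowest and replicate 4 the highest. The difference was 4.29 (SE 0.66, adjusted p = 9.94e-05) with odor and 4.20 (SE 0.66, adjusted p = 0.000134) with vehicle. Its neighbour Ccl4, MIP-1 beta, which macrophages also release, had a far smaller difference of 0.93 (SE 0.23, adjusted p = 0.00752) with odor and 0.28 (SE 0.23, adjusted p = 0.442) with vehicle.

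Ccl6, a mouse ligand of Ccr1 made by myeloid cells, was above background everywhere and higher in titled GFP+ by 3.69 (SE 0.44) with odor and 3.59 (SE 0.44) with vehicle. It ranged from 8.20 to 11.05 in odor titled GFP+, against 5.59 to 6.40 in odor titled GFP-. Ccl22 and Ccl17 both act on Ccr4, and dendritic cells are a known source. Ccl22 was higher by 1.82 (SE 0.24) with odor, at least 1.60-fold, and by 1.88 (SE 0.24) with vehicle, at least 1.80-fold. Ccl17 was higher by 1.08 (SE 0.29, adjusted p = 0.0123) with odor and differed by 0.85 (SE 0.29, adjusted p = 0.0512) with vehicle, and its odor groups overlapped. Ccl5, or RANTES, which T and NK cells release, was higher by 2.08 (SE 0.32) with odor, at least 1.52-fold, and by 1.92 (SE 0.32) with vehicle, at least 1.25-fold, and was above background in 3 of 4 libraries of each titled GFP+ group. Ccl2 and Ccl7, which draw monocytes through Ccr2, were called in neither agent: Ccl2 averaged 5.77 in odor titled GFP+ and 5.46 in odor titled GFP-, while its vehicle means were 5.44 in titled GFP+ and 5.57 in titled GFP-. Of the other ligands of the group, Ccl20 was above background in all 16 libraries and did not pass (-0.18 with odor, -0.20 with vehicle). Ccl1, Ccl8, Ccl11, Ccl12, Ccl24 and Xcl1 were in none of the 16 above background, and Ccl26 in 1.

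The promoter windows of Ccl9 and Ccl3 are printed because both genes lie in 1 run of neighbours on chromosome 11 and had large sort differences. Each window runs from 250 bases before to 50 after the RefSeq start on GRCm38.p6, 5′ to 3′ on the gene's strand. That of Ccl9 is chr11:83578587-83578886, minus strand, and that of Ccl3 is chr11:83649329-83649628, minus strand. Capitals mark matches to 3 motifs searched on both strands: GGG, any 2 bases and TTTCC, a kappaB form, TGANTCA, an AP-1 form, and GAGGAAG, a PU.1 form.
Ccl9: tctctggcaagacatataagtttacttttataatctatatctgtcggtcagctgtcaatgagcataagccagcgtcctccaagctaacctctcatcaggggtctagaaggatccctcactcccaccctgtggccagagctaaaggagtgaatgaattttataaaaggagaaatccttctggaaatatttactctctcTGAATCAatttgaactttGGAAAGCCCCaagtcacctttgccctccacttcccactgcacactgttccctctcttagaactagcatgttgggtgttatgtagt
Ccl3: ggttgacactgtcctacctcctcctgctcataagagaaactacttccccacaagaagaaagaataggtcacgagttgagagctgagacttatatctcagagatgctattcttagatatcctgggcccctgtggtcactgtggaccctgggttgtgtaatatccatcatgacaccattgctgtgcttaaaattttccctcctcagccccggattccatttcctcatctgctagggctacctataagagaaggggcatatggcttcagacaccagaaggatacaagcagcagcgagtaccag
Counted from the start, the Ccl9 window holds a kappaB match at -35 and an AP-1 match at -53. That of Ccl3 holds none of these letters. A match is a stretch of letters and shows no binding.

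Members that are neighbours in the genome did not share 1 pattern. In the run Ccl5, Ccl9, Ccl6, Ccl3 and Ccl4 on chromosome 11, 5 of 5 genes were higher with odor and 4 of 5 with vehicle. Over all features the shares were 11.0% and 10.2%. In the other run on that chromosome, Ccl2, Ccl7, Ccl11, Ccl12, Ccl8 and Ccl1, 0 of 6 were called, with differences from -0.34 to 0.40 with odor and from -0.60 to 0.17 with vehicle. On chromosome 5, Cxcl2 was the higher gene of 5 in the run Cxcl5, Cxcl3, Cxcl15, Cxcl1 and Cxcl2. The receptor run on chromosome 9 had 3 of 7 higher with each agent: Ccr9, Ccr1 and Ccr2.

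**Figure D2:**
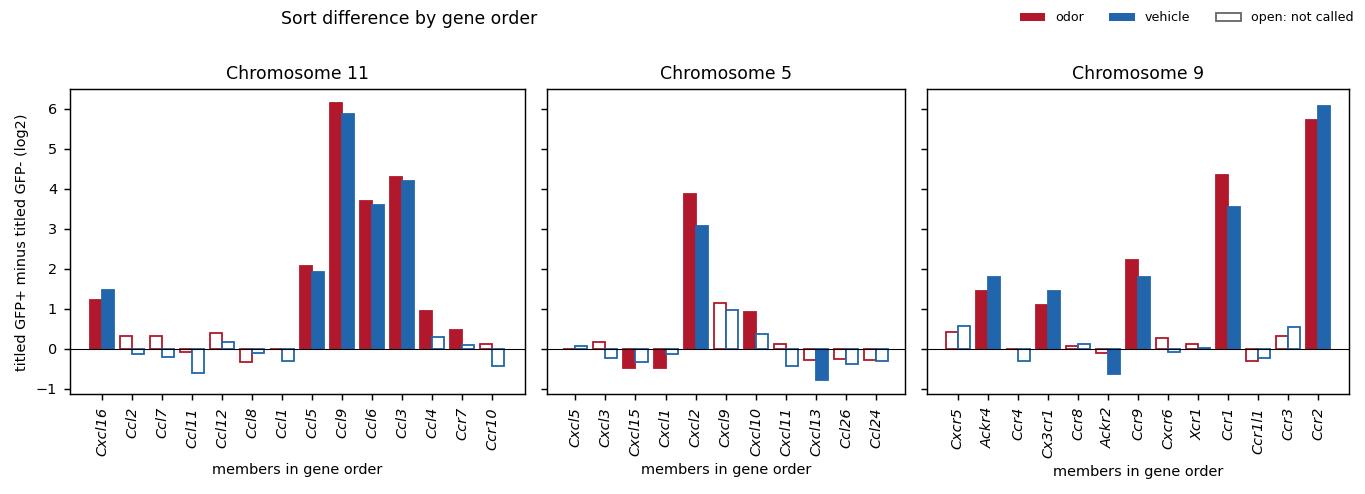
Sort difference (vertical axis, log2 units of titled GFP+ minus titled GFP-) of the members on chromosomes 11, 5 and 9 in gene order, without distances, with odor bars in red and vehicle bars in blue. Open bars did not pass. The tall bars on chromosome 11 are Ccl5, Ccl9, Ccl6 and Ccl3, beside the Ccl2 to Ccl1 run that holds no call, and Cxcl2 stands alone on chromosome 5.

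Neutrophil-attracting CXC ligands split into 1 gene that was higher and 4 that were not. Cxcl2, or MIP-2, had 10.47, 8.10, 6.53 and 9.03 in odor titled GFP+, against 4.78, 5.05, 4.06 and 4.77 in odor titled GFP-. With vehicle it had 7.87, 7.86, 6.23 and 7.75 in titled GFP+, against 4.43, 4.29, 4.59 and 4.10 in titled GFP-. No titled GFP- library was above background, the groups were apart with both agents, and the 4 odor titled GFP+ libraries spread over almost 4 log2 units. The difference was 3.87 (SE 0.58, adjusted p = 7.78e-05), at least 8.46-fold, with odor and 3.08 (SE 0.58, adjusted p = 0.000836), at least 3.78-fold, with vehicle. Cxcl1, or KC, had 4.72, 5.15, 4.90 and 4.90 in odor titled GFP+, all at background, against 5.57, 5.33, 5.43 and 5.31 in odor titled GFP-, of which 2 were above background. It was lower by the fit (-0.49, SE 0.12, adjusted p = 0.00595), at least 1.04-fold with the bound, and did not pass on the neuron marker scale or with vehicle (-0.14, SE 0.12, adjusted p = 0.458). Cxcl3 did not pass with either agent (0.16 with odor, -0.24 with vehicle), nor did Cxcl5, which was never above background. Cxcl15, lower by the fit with odor (-0.48, SE 0.15, adjusted p = 0.0338), was also never above background.

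The windows of Cxcl2 and Cxcl1 are shown because these paralogs are neighbours on chromosome 5 and differed in the sort. That of Cxcl2 is chr5:90903649-90903948, plus strand, and that of Cxcl1 is chr5:90890995-90891294, plus strand, from RefSeq on GRCm38.p6, with the same motifs in capitals.
Cxcl2: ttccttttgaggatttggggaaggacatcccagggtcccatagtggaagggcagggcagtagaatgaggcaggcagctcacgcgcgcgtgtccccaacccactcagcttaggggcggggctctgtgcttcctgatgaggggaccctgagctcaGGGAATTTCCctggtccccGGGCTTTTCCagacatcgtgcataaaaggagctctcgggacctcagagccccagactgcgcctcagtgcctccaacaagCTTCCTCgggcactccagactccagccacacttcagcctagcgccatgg
Cxcl1: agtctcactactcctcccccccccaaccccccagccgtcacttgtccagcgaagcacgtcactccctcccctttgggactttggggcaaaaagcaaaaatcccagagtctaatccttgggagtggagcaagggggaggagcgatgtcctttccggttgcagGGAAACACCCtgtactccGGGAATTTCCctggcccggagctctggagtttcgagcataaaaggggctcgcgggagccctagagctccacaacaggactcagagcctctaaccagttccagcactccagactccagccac
Both windows hold the kappaB match GGGAATTTCC, at -97 in Cxcl2 and at -71 in Cxcl1. Cxcl2 holds another kappaB match at -78 and a PU.1 match at its start, and Cxcl1 holds another kappaB match at -89. RefSeq windows were matched for 45 of the 60 members, with 49 windows. The kappaB letters stood in 6 of the 49 (12.2%) and in 1.63% of all 32851 windows, and the genes were Ccl9, Ccl20, Ccr3, Cxcl1, Cxcl2 and Cxcl3. AP-1 letters stood in 16.3% of member windows, against 7.81% of all, and PU.1 letters in 14.3%, against 13.6% of all. Of the 15 genes higher in both agents, 13 windows were matched, and 2 held the kappaB letters.

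Among the interferon-induced ligands of Cxcr3, which attract activated T cells, 1 of 3 was called. Cxcl10 was higher with odor by 0.91 (SE 0.26, adjusted p = 0.0202), at least 1.06-fold, and differed by 0.37 (adjusted p = 0.362) with vehicle. Its odor groups overlapped: 5.93, 6.16, 5.28 and 4.78 in titled GFP+, against 4.62, 4.36, 4.78 and 4.77 in titled GFP-. Cxcl9 differed by 1.14 (SE 0.47, adjusted p = 0.102) with odor and by 0.98 (SE 0.47, adjusted p = 0.179) with vehicle, and ranged from 4.25 to 6.71 in odor titled GFP+, against 3.98 to 5.17 in odor titled GFP-. Cxcl9 passed with odor when the pool was a block (adjusted p = 0.0346) and without odor titled GFP+ replicate 4 (1.68, adjusted p = 0.00541). Cxcl11 was above background in no library, and with vehicle it passed as lower when the pool was a block (-0.44, adjusted p = 0.03935).

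Of 13 homeostatic and epithelial ligands, Cxcl12 and Cxcl16 were higher with both agents and Cxcl17 with odor. Cxcl12, the ligand of Cxcr4 and Ackr3, had 6.17, 6.15, 5.95 and 6.03 in odor titled GFP+, against 4.68, 4.90, 5.53 and 5.01 in odor titled GFP-. All 4 titled GFP+ libraries were above background, against 1 of 4 titled GFP- libraries, and the groups did not overlap. Its difference was 1.04 (SE 0.19, adjusted p = 0.000496) with odor and 0.73 (SE 0.19, adjusted p = 0.0106) with vehicle, at least 1.24-fold. Cxcl16, a membrane-bound ligand of Cxcr6 carried by macrophages and dendritic cells, was higher by 1.22 (SE 0.23, adjusted p = 0.000693) with odor and 1.47 (SE 0.23, adjusted p = 0.000112) with vehicle. Cxcl17, a product of mucosal epithelia, was higher by 1.16 (SE 0.28, adjusted p = 0.00689) with odor and differed by 0.49 (SE 0.28, adjusted p = 0.262) with vehicle.

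Of the homeostatic ligands bright in all 4 groups, Ccl21a, Ccl25, Ccl27a and Cx3cl1 did not pass as deposited. Ccl27a, known from skin keratinocytes, ranged from 12.72 to 13.11 in odor titled GFP+, against 13.15 to 13.26 in odor titled GFP-. Ccl25, the ligand of Ccr9, averaged 8.04 in odor titled GFP+ and 8.28 in odor titled GFP-. Cx3cl1, or fractalkine, which neurons carry on the membrane and which binds Cx3cr1, had 6.96, 7.70, 8.67 and 8.27 in odor titled GFP+, against 8.41, 8.83, 9.19 and 8.64 in odor titled GFP-. Cx3cl1 was lower in titled GFP+ in 8 of 8 pools, by 0.24 to 1.44. It did not pass when pools were not matched (-0.87, SE 0.34, adjusted p = 0.0801) and was called lower with odor when the pool was a block (adjusted p = 0.00427), while its vehicle difference was -0.38 (SE 0.34, adjusted p = 0.477). Ccl28, a mucosal ligand of Ccr10, and Cxcl14, an epithelial chemokine, did not pass with either agent, and Cxcl14 was above background in no library. Nor were Ccl19, Ccl21b, Ccl21c and Cxcl13, and the lower calls of Ccl19 (-0.46) and Cxcl13 (-0.80) with vehicle are of levels within background. With the pool as a block the Ccl19 call ended (adjusted p = 0.0514), and Ccl21c (-0.72, adjusted p = 0.0309) and Ccl21b (-0.77, adjusted p = 0.0435) passed as lower with vehicle. Probes of Ccl21b and Ccl21c, near-identical copies, held identical values in 1 pair of features, so these genes are uncertain.

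**Figure D3:**
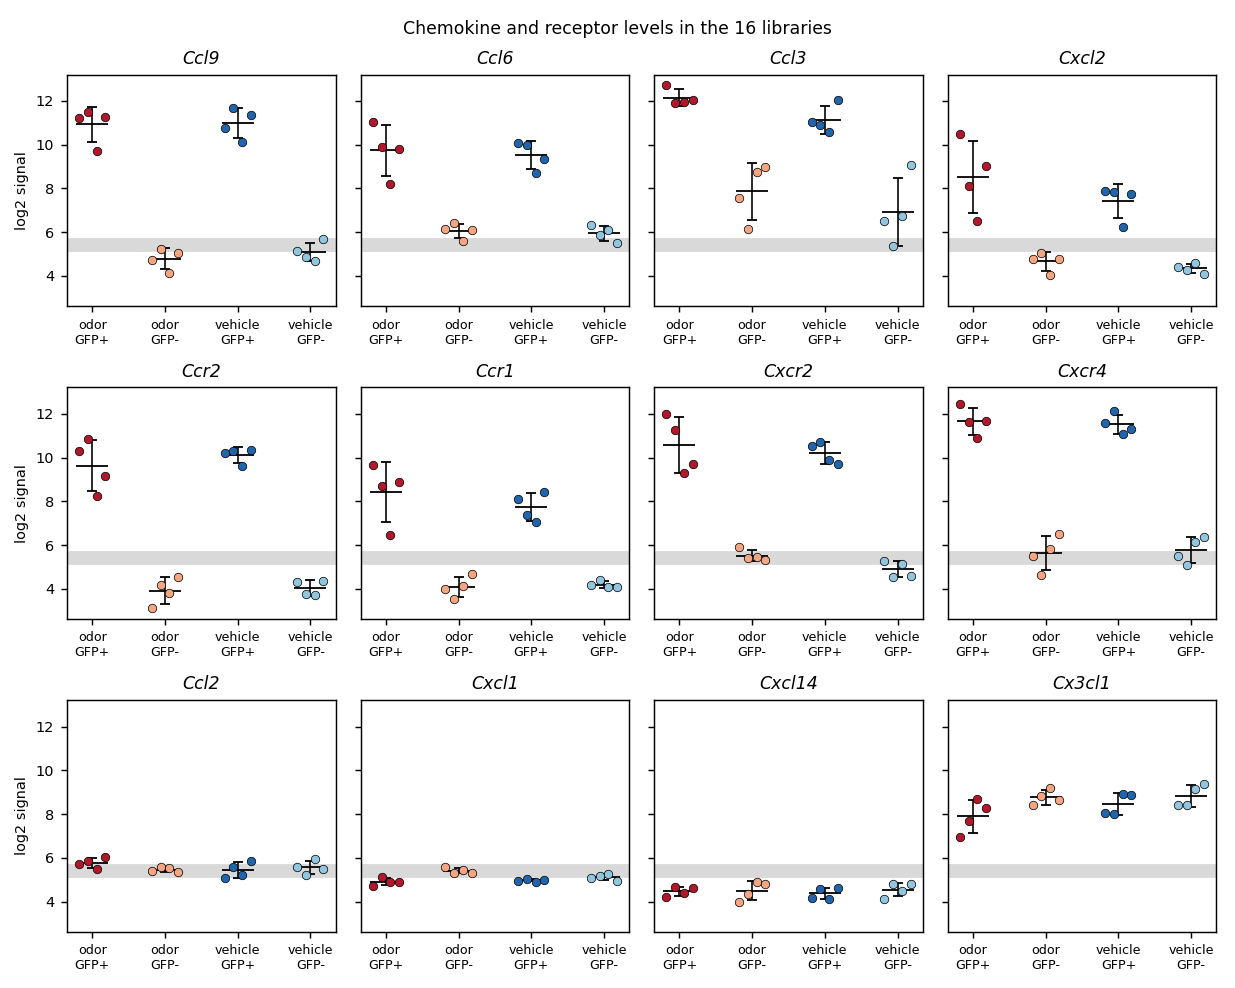
Log2 signal (vertical axis) of 12 members in the 4 groups of 4 libraries, named by their titles, with a point for each library and bars for the mean and SD. The grey band is the range of the negative control medians of the 16 arrays, 5.15 to 5.67. For Ccl9, Cxcl2, Ccr2 and Ccr1 the titled GFP- points reach no higher than its upper edge and every titled GFP+ point lies above the band, while Cxcl14 stays below it in all 4 groups and Cx3cl1 above it.

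CC receptors were led by Ccr2 and Ccr1, the receptors through which monocytes and other myeloid cells follow Ccl2 and the Ccl3, Ccl6 and Ccl9 group. Of 10 CC receptors, Ccr1, Ccr2 and Ccr9 were higher with both agents, Ccr7 with odor, and 6 in neither. Ccr2 had 10.32, 10.84, 8.24 and 9.14 in odor titled GFP+, against 3.11, 4.18, 3.82 and 4.55 in odor titled GFP-. With vehicle it had 10.22, 10.28, 9.59 and 10.36 in titled GFP+, against 4.30, 3.77, 3.71 and 4.37 in titled GFP-. Every titled GFP- library was at background. The difference was 5.72 (SE 0.43, adjusted p = 3.01e-08), at least 18.2-fold, with odor and 6.08 (SE 0.43, adjusted p = 1.52e-08), at least 24.3-fold, with vehicle.

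Ccr1 had 9.65, 8.71, 6.44 and 8.88 in odor titled GFP+, against 4.01, 3.53, 4.13 and 4.66 in odor titled GFP-. In vehicle libraries it had 8.12, 7.38, 7.06 and 8.40 in titled GFP+, against 4.16, 4.42, 4.07 and 4.10 in titled GFP-. As for Ccl9 and Ccr2, replicate 3 was the lowest titled GFP+ library with both agents, and the groups did not overlap. The difference was 4.34 (SE 0.49, adjusted p = 3.40e-06), at least 7.83-fold, with odor and 3.55 (SE 0.49, adjusted p = 3.40e-05), at least 4.71-fold, with vehicle. Ccr9, the Ccl25 receptor of gut-homing T cells, was higher by the fit (2.22 with odor and 1.78 with vehicle, SE 0.27 each), though 2 of 4 libraries of each titled GFP+ group were above background and no titled GFP- library was. Its bound was at least 1.07-fold with odor, and with vehicle the titled GFP+ mean lay below the negative control bound. Ccr7, which leads dendritic cells to lymph nodes, was higher with odor by 0.46 (SE 0.14, adjusted p = 0.0255) and did not pass with the pool as a block (adjusted p = 0.0565) or with vehicle (0.09, adjusted p = 0.718). Ccr4, Ccr6, Ccr8, Ccr10 and Ccr1l1 were above background in none of the 16 libraries, and Ccr3, an eosinophil receptor, in 1.

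CXC and CX3C receptors gave Cxcr4, Cxcr2 and Cx3cr1 as higher with both agents, Cxcr1 and Cxcr3 with odor, and 3 of 8 in neither. Cxcr4, the Cxcl12 receptor that retains leukocytes in bone marrow and guides migrating precursors, had 12.43, 11.63, 10.88 and 11.68 in odor titled GFP+, against 5.49, 4.64, 5.83 and 6.50 in odor titled GFP-. Its vehicle levels were 11.59, 12.11, 11.09 and 11.29 in titled GFP+, against 5.52, 5.09, 6.15 and 6.38 in titled GFP-. In each titled GFP- group 2 of 4 libraries were above background. The difference was 6.04 (SE 0.39, adjusted p = 3.29e-09) with odor and 5.73 (SE 0.39, adjusted p = 7.23e-09) with vehicle.

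Cxcr2, the neutrophil receptor for Cxcl1 and Cxcl2, had 11.99, 11.28, 9.27 and 9.70 in odor titled GFP+, against 5.90, 5.42, 5.44 and 5.31 in odor titled GFP-. With vehicle it had 10.55, 10.70, 9.89 and 9.71 in titled GFP+, against 5.28, 4.54, 5.14 and 4.60 in titled GFP-. The lowest titled GFP+ library was more than 3 log2 units above the highest titled GFP- library with both agents. The difference was 5.04 (SE 0.45, adjusted p = 1.94e-07) with odor and 5.32 (SE 0.45, adjusted p = 1.08e-07), at least 26.1-fold, with vehicle. Cx3cr1, the fractalkine receptor of monocytes and resident macrophages, was higher by 1.10 (SE 0.30, adjusted p = 0.0135), at least 1.48-fold, with odor and by 1.44 (SE 0.30, adjusted p = 0.00199), at least 1.79-fold, with vehicle. Cxcr3, a receptor of activated T cells, was higher with odor by 0.67 (SE 0.21, adjusted p = 0.0299), at least 1.14-fold, and did not pass on the quantile or the median scale. Cxcr1, higher by the fit with odor (0.69, SE 0.21, adjusted p = 0.0283, and adjusted p = 0.05003 with the pool as a block), was above background in no library, nor were Cxcr5, Cxcr6 and Xcr1.

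Atypical receptors moved both ways. Ackr4, which removes Ccl19, Ccl21 and Ccl25, had 7.07, 6.71, 6.32 and 6.20 in odor titled GFP+, against 5.11, 5.17, 5.24 and 4.96 in odor titled GFP-. With vehicle it had 6.84, 6.68, 6.71 and 6.13 in titled GFP+, against 5.02, 4.52, 4.91 and 4.71 in titled GFP-. Every titled GFP- library was at background, and the groups were apart. The difference was 1.45 (SE 0.19, adjusted p = 2.01e-05), at least 2.18-fold, with odor and 1.80 (SE 0.19, adjusted p = 1.92e-06), at least 2.12-fold, with vehicle.

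Ackr1, which binds inflammatory chemokines on venules and red cells, was bright in all groups. It was lower with odor (6.83 to 7.14 in titled GFP+, against 7.32 to 7.46 in titled GFP-), by a difference of -0.44 (SE 0.13, adjusted p = 0.0236). With vehicle the difference was -0.45 (SE 0.13, adjusted p = 0.0237), and both calls ended on the neuron marker scale. Ackr3, the scavenger of Cxcl12, and Ackr2, that of inflammatory CC ligands, were above background in no library, so that the call of Ackr3 as higher with odor (0.68, adjusted p = 0.0213) and of Ackr2 as lower with vehicle (-0.63, adjusted p = 0.0199) compares levels within background.

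Several calls of dim members or small differences ended when 1 library was left out, and those libraries are named here. Ccr7 did not pass without odor titled GFP+ replicate 1 or 4 or odor titled GFP- replicate 1 or 4 (adjusted p between 0.0529 and 0.0891). Cxcr3 did not pass without odor titled GFP+ replicate 2, 3 or 4 or odor titled GFP- replicate 1 or 3 (between 0.0523 and 0.1003). Cxcr1 was lost without odor titled GFP+ replicate 2 or 4 or odor titled GFP- replicate 1 or 2 (between 0.0572 and 0.0949), and Cxcl10 without odor titled GFP+ replicate 1 or 2 or odor titled GFP- replicate 2 (between 0.0587 and 0.0719). The Ackr3 call ended without odor titled GFP+ replicate 1 or 4 or odor titled GFP- replicate 1 (between 0.0530 and 0.0693). Of the lower calls with odor, Ackr1 was lost without replicate 2 or 4 of titled GFP+ or replicate 2 or 3 of titled GFP- (between 0.0514 and 0.0616), and Cxcl15 without replicate 2, 3 or 4 of titled GFP+ or replicate 1, 2 or 4 of titled GFP- (between 0.0516 and 0.0982).

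The lower calls with vehicle also lay close to the threshold, and each ended when any 1 of the libraries named here was left out. Ackr1 was lost without replicate 1 of titled GFP+ or replicate 1 or 3 of titled GFP- (adjusted p between 0.0706 and 0.0881), and Ackr2 without replicate 2 or 4 of titled GFP+ or replicate 1 of titled GFP- (between 0.0668 and 0.0751). Ccl19 was lost without replicate 2 or 4 of titled GFP+ or replicate 1 or 4 of titled GFP- (between 0.0535 and 0.0947), and Cxcl13 without replicate 2 of titled GFP+ or replicate 1 of titled GFP- (between 0.0565 and 0.0641). In the other direction, Ccl4 passed with vehicle once titled GFP+ replicate 3 was left out (0.59, adjusted p = 0.0122), Ccl17 without titled GFP- replicate 3 (1.01, adjusted p = 0.0329) and Cxcl11 as lower without titled GFP+ replicate 3 (-0.51, adjusted p = 0.0377). Ccl11 passed as lower with vehicle without titled GFP+ replicate 2 (-0.71, adjusted p = 0.0451). With odor, Cx3cl1 (-1.12, adjusted p = 0.0237) and Cxcl13 (-0.53, adjusted p = 0.0474) passed as lower without titled GFP+ replicate 3, and Ccl12 as higher without titled GFP- replicate 1 (0.64, adjusted p = 0.0292).

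Genes that act with these receptors but lie outside the families were mostly higher too. Of 39 measured genes of chemokine signalling and related attractants, 28 were higher and 0 lower with odor (median 1.59), and 29 higher and 0 lower with vehicle (median 1.35). Over all features, 11.0% were higher with odor and 10.2% with vehicle, with median differences of -0.14 and -0.13. Rac2, a small GTPase that blood cells use in chemotaxis, was higher by 7.58 (SE 0.40) with odor and 7.10 (SE 0.40) with vehicle. Rgs2, which shortens G protein signals, was higher by 6.14 (SE 0.42) with odor and 6.07 (SE 0.42) with vehicle. Gnai2, the inhibitory G protein of leukocyte receptors, was higher by 5.99 (SE 0.29) with odor and 5.75 (SE 0.29) with vehicle. Pik3cg, the lipid kinase these receptors switch on, was higher by 6.00 (SE 0.31) with odor and 5.54 (SE 0.31) with vehicle. Many genes of this list serve other leukocyte receptors as well, and 11 did not pass with odor and 10 with vehicle.

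Markers of leukocytes, of epithelial cells and of neuron precursors moved with these members. Among all features, 11.0% were higher and 9.86% lower with odor, and 10.2% higher and 7.16% lower with vehicle. Neutrophil markers were higher in 12 of 12 with both agents, and the log2 of their summed signal was 18.66 to 19.86 in odor titled GFP+, against 9.68 to 11.43 in odor titled GFP-, and 18.78 to 19.23 in vehicle titled GFP+, against 9.49 to 10.80 in vehicle titled GFP-. No neutrophil marker was at background in all 4 odor titled GFP+ libraries, against 5 of 12 in odor titled GFP-. Macrophage and monocyte markers were higher in 8 of 12 with odor and 9 of 12 with vehicle, and their sum was 15.08 to 16.84 in odor titled GFP+, against 9.33 to 10.47 in odor titled GFP-. With vehicle it was 15.60 to 16.24 in titled GFP+, against 9.17 to 10.41 in titled GFP-. Lyz2 (14.44 to 16.26 in odor titled GFP+) and Ly6c2 (13.17 to 14.95) weigh heavily in this sum, so there it follows these genes more than the other markers. Whether it is separate from the neutrophil sum was not tested. Dendritic cell markers were higher in 5 of 7 with each agent (sum 11.80 to 13.49 in odor titled GFP+, against 8.23 to 8.75 in odor titled GFP-).

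Markers of lymphocytes and of the epithelium were called as well. T and NK cell markers were higher in 7 of 9 with each agent, with a sum of 8.93 to 9.95 in odor titled GFP+, against 8.33 to 8.57 in odor titled GFP-, where 8 of 9 were at background. B and plasma cell markers were higher in 3 of 6 with odor and 4 of 6 with vehicle, and those of mast cells, basophils and eosinophils in 5 of 8 with odor and 6 of 8 with vehicle. Sustentacular cell markers were higher in 7 of 8 with each agent (sum 14.97 to 16.50 in odor titled GFP+, against 13.22 to 13.96 in odor titled GFP-). Microvillar cell markers were higher in 7 of 7 with each agent, with median differences of 3.67 with odor and 3.28 with vehicle (sum 11.96 to 13.37 in odor titled GFP+, against 8.15 to 8.41 in odor titled GFP-). Globose basal progenitor markers were higher in 4 of 4 with each agent, with medians of 3.44 and 3.52 (sum 10.71 to 11.90 in odor titled GFP+, against 6.63 to 7.38 in odor titled GFP-). Bowman's gland markers were higher in 3 of 6 with each agent (sum 13.67 to 15.04 in odor titled GFP+, against 9.93 to 11.95 in odor titled GFP-). This list shares Ltf with the neutrophil list, so the gland sum is not separate from neutrophil markers. Ltf alone was 12.48 to 14.84 in odor titled GFP+, against 4.84 to 5.46 in odor titled GFP-.

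Those of immature olfactory neurons were higher in 5 of 10 with odor and 6 of 10 with vehicle, of respiratory epithelium in 2 of 4 with each agent (1 of 4 was lower), of horizontal basal cells in 2 of 6 with odor and 1 of 6 with vehicle, and the 2 measured erythroid markers with both agents. Of the remaining lists, endothelial markers were higher in 2 of 6 and lower in 1 of 6 with odor and called in 0 of 6 with vehicle, and those of fibroblasts and of ensheathing glia in 1 of 5 each with each agent. Mature olfactory neuron markers were higher in 0 of 20 and lower in 3 of 20 with each agent, with a sum of 21.01 to 21.38 in odor titled GFP+, against 21.43 to 21.60 in odor titled GFP-. Of all features, 9.86% were lower with odor and 7.16% with vehicle. Lists of 5 or 6 genes with 1 call are too short to set against the shares over all features. The part of these cell types in the sort differences of the chemokine genes was not tested.

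Among the odor titled GFP+ libraries, replicate 1 had the highest neutrophil and macrophage sums (19.86 and 16.84) and the highest Cxcl2, Ccl6, Ccr1, Cxcr2 and Cxcr4. Ccl9 (11.49) and Ccr2 (10.84) were highest in replicate 2. Replicate 3 had the lowest sums (18.66 and 15.08) and the lowest Cxcl2, Ccl6, Ccl9, Ccr1, Ccr2, Cxcr2 and Cxcr4. Ccl3 was not lowest there. The sustentacular sum was also highest in replicate 1 (16.50) and lowest in replicate 3 (14.97). So were those of microvillar cells, Bowman's gland, respiratory epithelium, horizontal basal cells, B and plasma cells and fibroblasts. Cd44 (10.27 to 12.19 in odor titled GFP+) makes up most of the horizontal basal cell sum (10.39 to 12.23). Only Cd44 and Icam1 of that list were called with odor, so the sum does not stand for the whole list. Other lists differed: the T and NK cell sum was highest in replicate 2 (9.95) and lowest in replicate 4 (8.93). The ranking of members repeated only in part in vehicle titled GFP+, where replicate 1 again had the highest neutrophil and macrophage sums (19.23 and 16.24). There Ccr1 (8.40) and Ccr2 (10.36) were highest in replicate 4, and Cxcr2 (10.70), Cxcr4 (12.11) and Ccl9 (11.67) in replicate 2. Cxcl2, Ccl6, Ccl9, Ccr1, Ccr2 and Cxcr4 were again lowest in replicate 3, and Cxcr2 in replicate 4 (9.71). With odor pool 3 left out in both sorts, 22 members were higher and 2 lower with odor, while 2299 of all features were higher and 1668 lower.

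**Figure D4:**
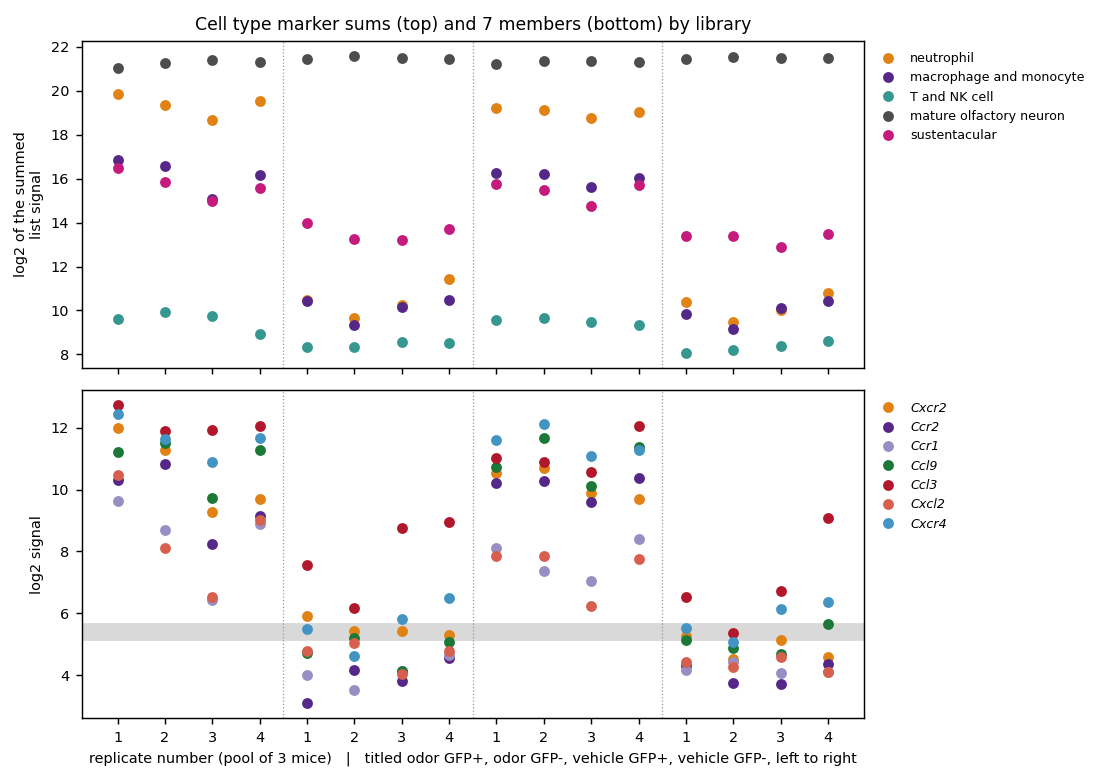
Log2 of the summed signal of 5 cell type marker lists (upper panel) and log2 signal of 7 members (lower panel) in each of the 16 libraries, ordered along the horizontal axis by group and replicate number, with dotted lines between groups and the grey band as the range of negative control medians. Neutrophil and macrophage sums and the 7 members are high in the libraries titled GFP+ and low in those titled GFP-, while the sum of mature neuron markers stays between 21.01 and 21.60.

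The odor changed no chemokine or receptor gene past the threshold. Between odor and vehicle within titled GFP+, limma called 0 of the 60 genes (0.00901% of all features were called), within titled GFP- 0 (0.0180% of all), and for the difference between these changes, the interaction, 0 (0.00450% of all). At an unadjusted p below 0.05 there were 9 members within titled GFP+, where 4.83% of all features passed, 5 within titled GFP-, where 3.30% passed, and 4 for the interaction, where 2.94% passed. The 9 members within titled GFP+ were all higher with odor, where 2.41% of all features were, and 44 of the 60 had a positive difference, with a median of 0.15 against -0.01 over all features. Ackr3, Ccr10, Cxcl11 and Cxcr6, among the 9, were above background in no library. At this unadjusted threshold 4 members passed with quantile normalization, 11 on the neuron marker scale, and 3 of 27 after the filter on dim features. The share of all features passing unadjusted was not counted under these settings, so these counts have no background rate beside them. Within titled GFP- 29 of the 60 had a positive difference, with a median of -0.01 against -0.0011 over all features. The positive shift within titled GFP+ was not particular to the members. It held for 12 of 12 neutrophil markers (median 0.41), 8 of 8 sustentacular markers (0.35) and 31 of 39 chemokine signalling genes (0.14). Macrophage and monocyte markers had 7 of 12 (0.05), mature olfactory neuron markers 7 of 20 (-0.04) and immature ones 1 of 10 (-0.31). The part of these lists in the shift was not tested. The odor and the sort comparisons share libraries, so these values are not separate evidence.

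The members with the smallest unadjusted p did not pass after adjustment. Within titled GFP+, Ccl7 had 5.57, 5.97, 5.91 and 5.92 with odor, against 5.15, 5.28, 5.32 and 5.50 with vehicle, a difference of 0.53 (SE 0.17, unadjusted p = 0.00597, adjusted p = 0.968). Those groups did not overlap, and 2 of the 4 vehicle libraries were above background. Cxcr6, the receptor of Cxcl16, differed by 0.57 (SE 0.19, adjusted p = 0.968) and was at background in both groups, and Ccl4 differed by 0.67 (SE 0.23, adjusted p = 0.968), with 6.10 to 6.54 with odor, against 4.70 to 6.11 with vehicle. Within titled GFP- the smallest p were those of Cxcl1 (0.30, SE 0.12, adjusted p = 1.00), Ackr2 (-0.41, SE 0.18) and Ccl21c (-0.55, SE 0.25), all near or below background. For the interaction they were those of Cxcl11 (0.55, SE 0.21), Ccr10 (0.54, SE 0.23) and Ccl7 (0.54, SE 0.24), each with an adjusted p of 1.00.

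Members with large sort differences had large errors for the odor change. Cxcl2 differed by 1.10 (SE 0.58, adjusted p = 0.968) between odor and vehicle within titled GFP+, and its odor libraries of 6.53 to 10.47 overlapped the vehicle libraries of 6.23 to 7.87. Ccl3 differed by 1.02 (SE 0.66) within titled GFP+ and by 0.93 (SE 0.66) within titled GFP-. Ccr1 differed by 0.68 (SE 0.49) and Ccr2 by -0.48 (SE 0.43) within titled GFP+. Ccl9 differed by -0.05 (SE 0.38) and Cxcr4 by 0.14 (SE 0.39) there. With such errors, changes near 1 log2 unit were not detectable for Cxcl2 and Ccl3. The 8 genes called as higher in the sort with odor and not with vehicle are not shown to differ between agents, since none passed the interaction: Ccl4 gave 0.65 (SE 0.33), Cxcl17 0.67 (SE 0.40) and Cxcr1 0.62 (SE 0.30).

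**Figure D5:**
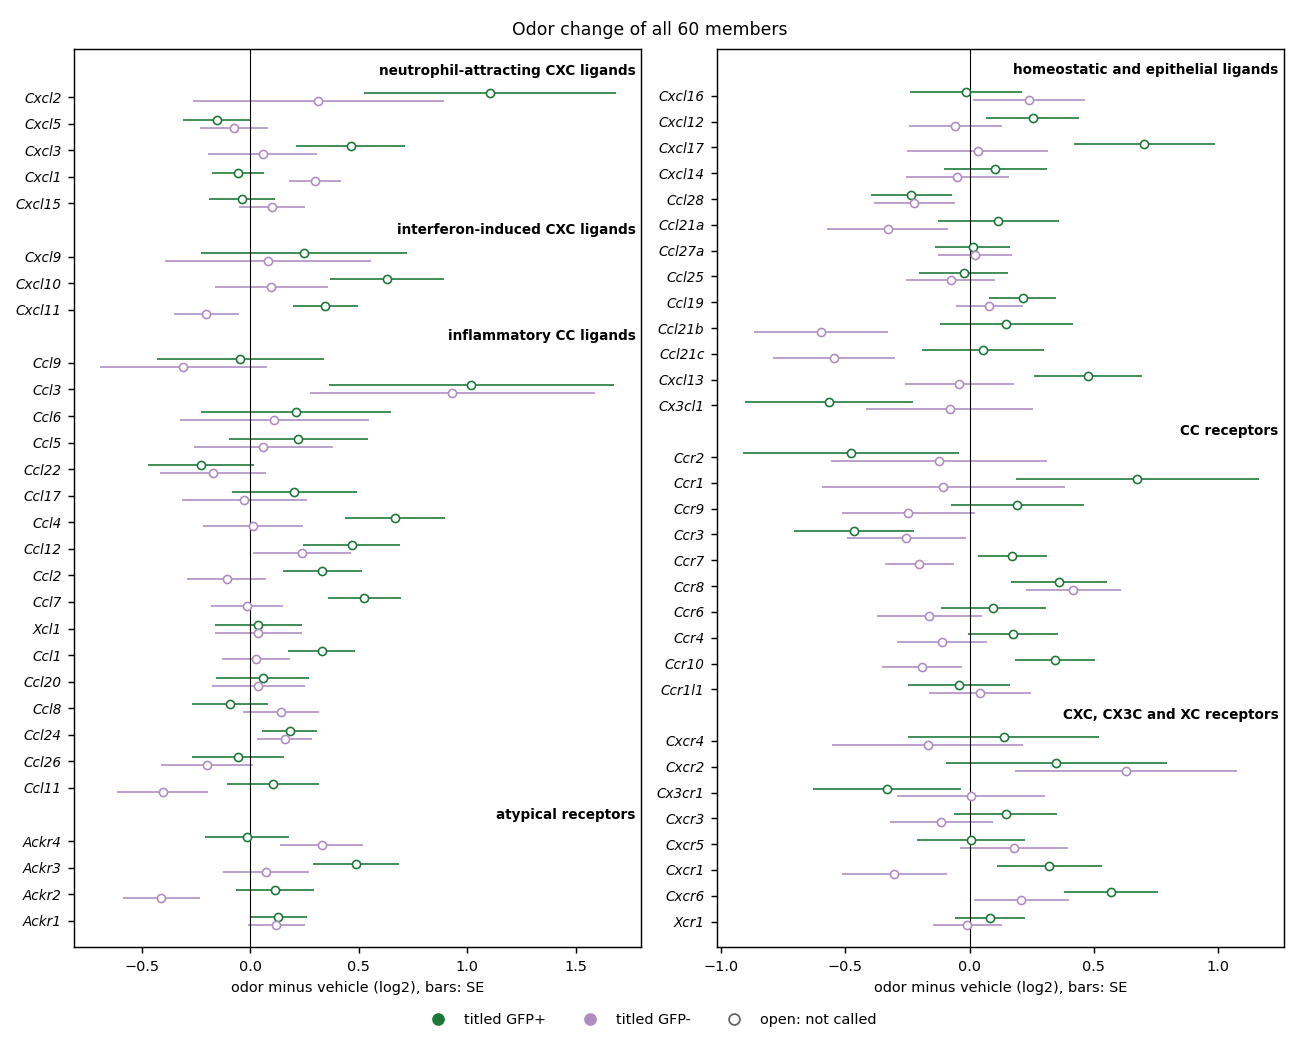
Change of the 60 members with odor, in log2 units of odor minus vehicle (horizontal axis), within titled GFP+ in green and titled GFP- in purple, by role group, with SE bars. All points are open, since none passed. Within titled GFP+ Cxcl2 and Ccl3 lie beyond 1, with SE of 0.58 and 0.66.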

How the data were processed

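The authors deposited 1 log2 signal per feature and array, which the submitters' processing notes credit to Affymetrix Expression Console. Its background correction and normalization are unstated in the labels and notes used here. Per the labels' protocols, biotinylated cRNA came from 50 to 100 ng of total RNA. Of 28846 features, 6640 controls (5222 of them negative) were left out, and 22206 were tested. Symbols came from the platform annotation, and all 60 members matched a RefSeq table of GRCm38.p6, used for gene order and promoter windows. The array's own build is unstated there too.

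Groups follow the sample titles. The model was limma 3.58.1 (R 4.3.3), lmFit on 4 group means of all 16 arrays and eBayes, with 12 residual and 4.50 prior degrees of freedom. Contrasts were titled GFP+ minus titled GFP- per agent, odor minus vehicle per sort, and their interaction. Benjamini-Hochberg adjustment ran over all 22206 features, with a threshold of 0.05. The fit was tested on simulated data.

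The members and all lists were chosen with earlier results of these data known. Named with values were S100a5, up to 20 members called in a sort difference by size (at least 2 of each role group with calls), the 4 with the highest mean in each sort, the 3 with the smallest p of each odor comparison, 8 members known in olfactory mucosa, and the 4 pathway genes with the largest differences. Other members named beyond this rule were chosen after their values were seen.

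The alternatives were the pool or the replicate number as a block, quantile normalization, centring on the array median or on mature neuron markers, a filter on dim features, a trended robust prior, a fit of the compared groups alone, the dimmer feature of a gene, and each library left out. Titled GFP+ and titled GFP- libraries of 1 pool come from the same mice, and their deviations from the group means correlated at 0.158 to 0.399. Odor and vehicle libraries share only a replicate number. Their correlations were 0.174 to 0.278 in titled GFP+ and 0.0729 to 0.406 in titled GFP-. The main fit held no block. The replicate number was a block only in an alternative run of the odor comparison in both sorts.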

Additional observations from a re-analysis of the deposited data

Results flagged for a closer look

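In 6 of 132 groups of 4 libraries, 1 library stood far from the other 3 by Dixon's test, and chance alone gives about 1 in 20 groups. Ccl9 was 9.73 in odor titled GFP+ replicate 3, against 11.20 to 11.49 in the others. Cxcl2 was 6.23 in vehicle titled GFP+ replicate 3 (others 7.75 to 7.87), and Ccl22 was 5.67 in the same library (others 6.48 to 6.64). Ccl7 was 5.57 in odor titled GFP+ replicate 1 (others 5.91 to 5.97). Ccr9 was 5.89 in odor titled GFP+ replicate 2 (others 5.43 to 5.45). Ccl28 was 5.87 in odor titled GFP- replicate 4 (others 5.33 to 5.40).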

How the results depend on the processing

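No called member took the other sign under any alternative run. On the median scale the lower members numbered 17 with odor and 30 with vehicle, and the called ones 44 with vehicle. Of all 22206 features, 13679 were lower with odor on that scale and 13868 with vehicle. On the neuron marker scale 0 were lower with either agent, and after the filter on dim features, which leaves 27 members, 1 was lower with each. The cause was not tested for the scales, and the filter tests fewer genes. With 1 library left out in turn, 21 to 26 members were called with odor (19 to 22 higher, 1 to 4 lower) and 15 to 21 with vehicle (15 to 16 higher, 0 to 5 lower), and 0 to 0 in the odor and interaction tests. Of all features, 2146 to 2480 were then higher and 1425 to 2144 lower with odor. With vehicle 2006 to 2203 were higher and 1189 to 1396 lower. Without odor pool 3, an alternative chosen after seeing the data, 22 were higher and 2 lower with odor. Of all features, 2299 were then higher and 1668 lower. With 4 arrays per group, members near the negative control have only bounds.

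With the pool as a replicate block, 22 members were higher and 4 lower with odor, 15 higher and 6 lower with vehicle, and 0 passed the interaction. Of all features, 2640 were then higher and 3147 lower with odor, and 2421 higher and 2254 lower with vehicle. With the replicate number as a block, 0 passed between odor and vehicle in either sort. The block changed the calls of Ccr7, Cxcr1, Cx3cl1, Cxcl9, Ccl19, Ccl21b, Ccl21c and Cxcl11, each given in the report with its value, and no other call.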
